A study of Capra hircus with 10 samples.

Results

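The serpin protease inhibitors and the plasminogen activator system of the goat ovary were taken from the protein-coding part of the transcript table by gene symbol. The rule took symbols made of SERPIN with a clade letter and a number, together with PLAT, PLAU, PLAUR, PLG, A2M and A2ML1. Described here are 27 of the 20587 protein-coding gene symbols, namely 22 serpins, 4 genes of the plasminogen system and A2ML1 of the macroglobulin family, with 53 transcripts in all. A2M had no match and was not analysed here, and serpins that carry only a locus number as their symbol were not picked up. The ovaries came from Anhui white goats and were collected at a slaughterhouse, 5 in the follicular phase and 5 in the luteal phase of the estrous cycle. The labels give no treatment, age or hormone level for either phase. Whole ovaries were used, so every value is a mixture of follicles, stroma, vessels and, in the luteal phase, corpus luteum. Fewer cells of a type and less RNA per cell therefore cannot be told apart in these samples. Nothing states which ovaries came from separate goats. The p-values set the phase difference against the spread between these ovaries, each taken as independent, which fails if some share a goat.

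Serpins are proteins with an exposed loop that a target protease cuts, after which the serpin changes shape and traps the protease. Plasminogen is a precursor from the liver that the activators PLAU (urokinase) and PLAT (tissue-type activator) turn into plasmin, a protease of fibrin clots and extracellular matrix. In the ovary this system is known from the breakdown of the follicle wall at ovulation and from the remodelling of tissue as the corpus luteum forms and regresses. Some members of the serpin family inhibit no protease and serve as chaperones, hormone carriers or secreted factors instead.

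Expression was given as FPKM, a fragment count corrected for transcript length and for the size of the library, and it was summed over the transcripts of each gene. FPKM over all transcripts summed to between 452508 and 540124 per ovary. The read counts behind single values were not used here, so the depth behind a value is unknown and the spread between ovaries served as the measure of precision. Of the 27 members, 18 reached 0.1 FPKM in 5 or more ovaries and were tested with limma on log2(FPKM + 0.1), luteal minus follicular. A gene with a Benjamini-Hochberg adjusted p under 0.05 over all 15359 genes tested is named as called. The median log2 fold change of all genes tested was -0.14. The labelled phases were checked with corpus luteum markers (STAR, LHCGR, PTGFR, OXT and CYP11A1, found under LOC102173131), of which 5 of 5 were higher in the luteal phase. The summed level of these markers was between 5768 and 7930 FPKM in luteal phase ovaries and between 123 and 172 in the follicular phase.

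A total of 8 of the 18 tested members were called, which is 44.4% where 43.7% of all genes tested were called. Of these, 6 showed higher expression in the luteal phase (33.3% of the members, against 15.9% of all genes) and 2 in the follicular phase (11.1%, against 27.8%). The 6 luteal genes were SERPINB12, SERPINF1, SERPINA5, SERPINF2, PLAU and SERPINB1. The 2 follicular genes were SERPINA14 and A2ML1. The phases were apart, with no overlap, for 6 members that were higher in the luteal phase (11.2% of all genes) and for 1 that was higher in the follicular phase (17.2% of all genes). The median log2 fold change of the tested members was 0.45 (0.59 more than that of all genes), and 11 of the 18 were above 0. SERPINB12 reached the minimum of 0.1 FPKM in luteal phase ovaries alone, so it could enter the test only by being high there. Its phases were thereby bound to be apart. Among the other 17 members, 5 were called on the luteal side (29.4%) and 2 on the follicular side, with a median log2 fold change of 0.38. Those 5 luteal genes were also the ones of the 17 with no overlap on that side. The shares over all genes moved with the scaling. On the TPM scale, 18.8% of all genes were called higher in luteal phase ovaries and 17.0% in follicular phase ovaries, beside 6 and 2 members. With quantile normalization, 7 members were called on the luteal side (17.5% of all genes) and 1 on the follicular side (24.4%). SERPINB12 was among the luteal members under both scalings.

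**Figure D1:**
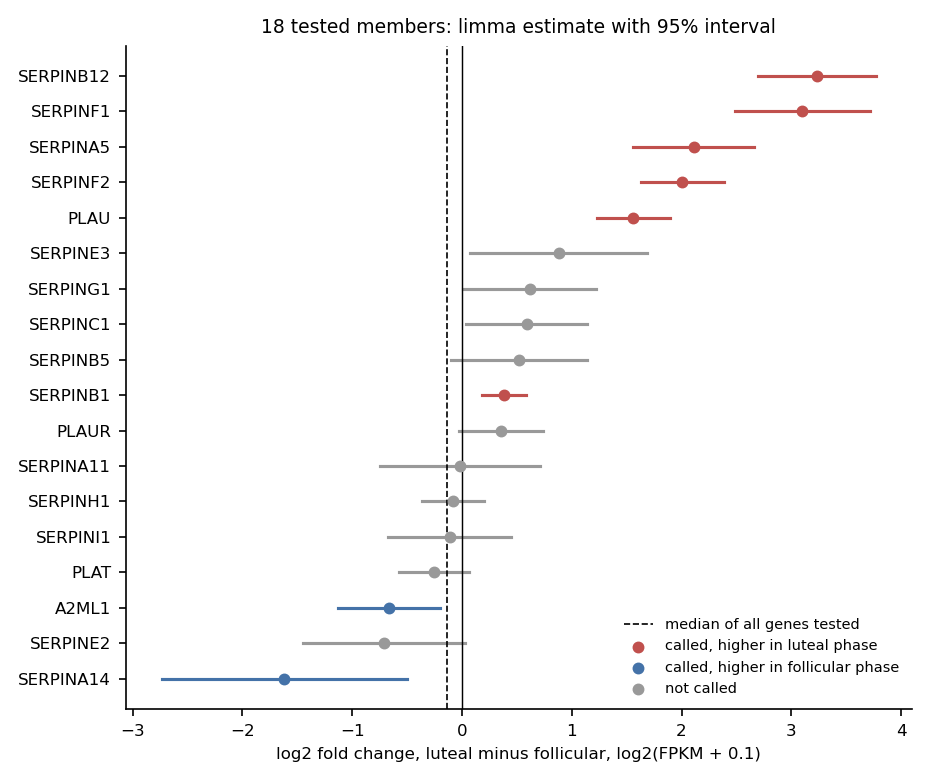
The log2 fold change of each of the 18 tested members (points, luteal minus follicular on log2(FPKM + 0.1)) with its 95% confidence interval from limma (lines), colored by call, and the median of all genes tested as a dashed line. SERPINB12 (3.23) and SERPINF1 (3.10) stand at the top and SERPINA14 (-1.62) at the bottom, with the widest interval of the 8 called members.

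The activators of plasminogen differed from each other in their phase difference. PLAU (Gene ID 102188193) had FPKM of 15.8, 15.0, 12.2, 10.3 and 10.1 in luteal phase replicates 1 to 5 and of 4.82, 3.68, 3.59, 3.84 and 5.06 in follicular phase replicates 1 to 5. The lowest luteal phase ovary was thus about as far above the highest follicular phase ovary as that ovary was above 0. The means were 12.7 ± 2.61 and 4.20 ± 0.689 (mean ± SD, n = 5 each), a 2.95-fold difference (log2 fold change 1.56, standard error or SE 0.15, limma adjusted p = 2.36e-05). PLAT (Gene ID 102187371) had FPKM of 54.2, 66.8, 70.0, 54.9 and 53.1 in luteal phase ovaries and of 59.8, 101, 68.0, 59.1 and 74.3 in the follicular phase. These ranges overlapped, and the highest value belonged to follicular phase replicate 2. PLAT had a log2 fold change of -0.26 with a 95% interval from -0.58 to 0.06 (limma adjusted p = 0.170), an interval that leaves out any luteal increase of the size measured for PLAU.

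PLAT was the more abundant activator in 10 of 10 ovaries. FPKM is scaled by transcript length, so the levels of both genes can be set side by side. PLAU amounted to between 17.4% and 29.1% of the PLAT level in luteal phase ovaries and to between 3.62% and 8.06% in the follicular phase. PLAUR, the receptor that holds urokinase at the cell surface, had FPKM of 4.07, 4.58, 3.11, 2.92 and 2.57 in luteal phase ovaries and of 2.13, 2.95, 2.52, 3.25 and 2.38 in the follicular phase. Its ranges overlapped, with a log2 fold change of 0.35 (95% interval -0.03 to 0.74, limma adjusted p = 0.122). PLG, plasminogen itself, was listed at 0 in 8 ovaries, at 0.00776 in luteal phase replicate 4 and at 0.00379 in follicular phase replicate 2, and was not tested. The ovaries thus held transcripts of both activators and of the receptor, while plasminogen was listed at or near 0 in all 10.

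**Figure D2:**
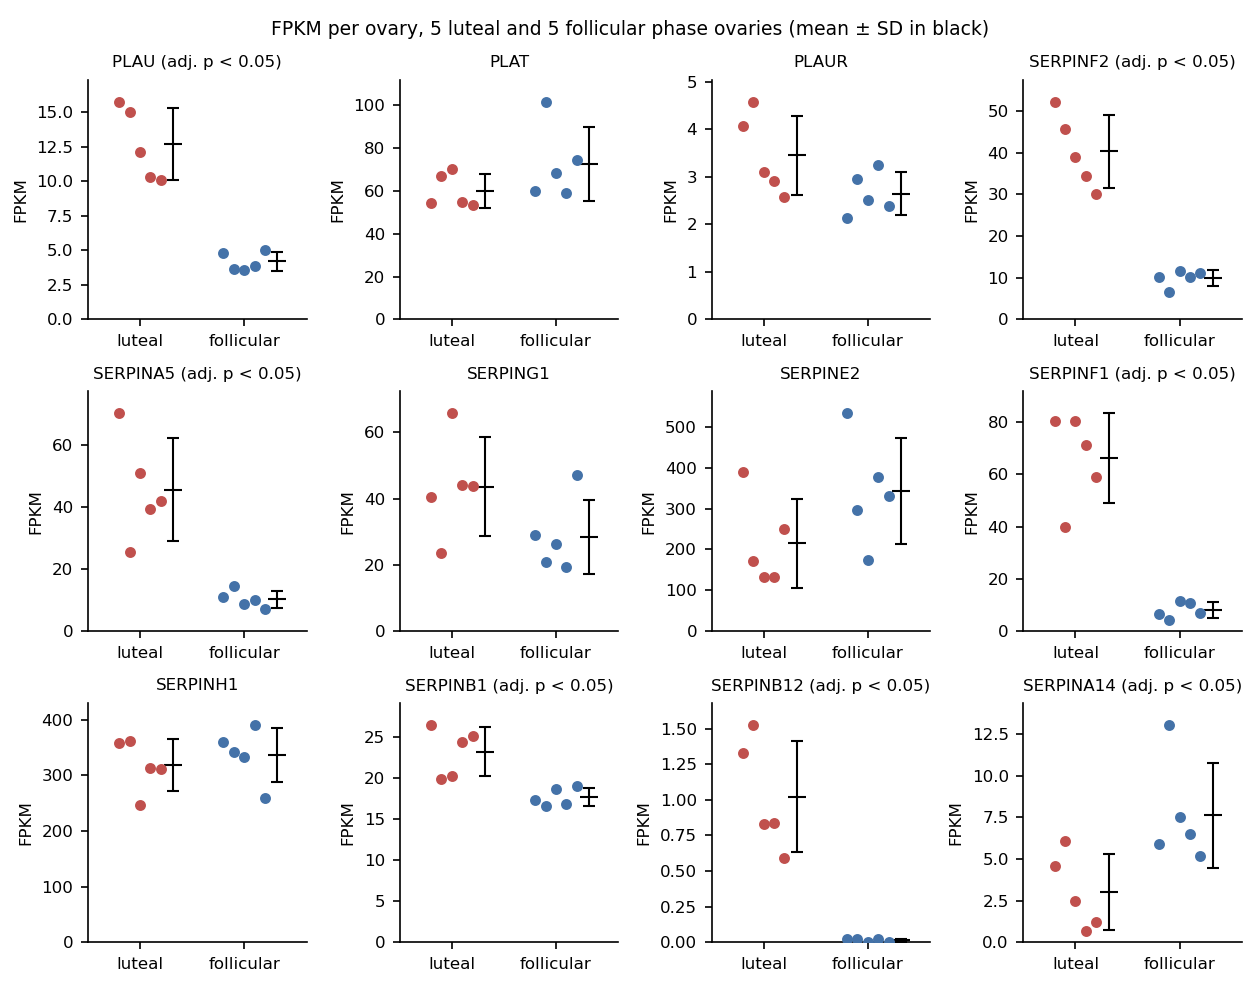
FPKM (y axis, from 0) of 12 members in each of 5 luteal phase (red) and 5 follicular phase (blue) ovaries, in order of replicate number from left to right, with the mean and SD in black. PLAU, SERPINF2, SERPINA5, SERPINF1, SERPINB1 and SERPINB12 show no overlap between the phases, whereas PLAT, PLAUR, SERPING1, SERPINE2, SERPINH1 and SERPINA14 do overlap.

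Of the 4 serpins described here that inhibit plasmin or its activators, 2 were higher in luteal phase ovaries and 2, SERPINE2 and SERPINI1, were not called (15.9% of all genes were called on the luteal side and 43.7% on either side). SERPINF2 (alpha-2-antiplasmin, the main inhibitor of plasmin, Gene ID 102178565) had FPKM of 52.2, 45.8, 39.1, 34.5 and 30.2 in luteal phase replicates 1 to 5 and of 10.2, 6.66, 11.5, 10.1 and 11.2 in the follicular phase. Every luteal phase ovary was above every follicular phase ovary. The means were 40.4 ± 8.81 and 9.94 ± 1.93 (mean ± SD, n = 5 each), a 4.02-fold difference with a log2 fold change of 2.01 (SE 0.17, limma adjusted p = 9.49e-06). SERPINA5 (protein C inhibitor, which also inhibits urokinase, Gene ID 102173891) had FPKM of 70.2, 25.5, 51.0, 39.3 and 41.9 in luteal phase ovaries and of 10.9, 14.4, 8.58, 10.1 and 7.07 in the follicular phase. The lowest luteal phase value, in replicate 2, was still above the highest follicular phase value. SERPINA5 thus had a log2 fold change of 2.11 (SE 0.25, limma adjusted p = 9.16e-05), or 4.32-fold.

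SERPINF2 and PLAU kept a similar proportion to each other over the luteal phase ovaries. SERPINF2 stood at 2.99 to 3.34 times the FPKM of PLAU in the 5 luteal phase ovaries. In the 5 follicular phase ovaries it stood at 1.81 to 3.21 times. These ranges overlapped through follicular phase replicate 3 alone (3.21), and the other follicular phase ovaries lay below every luteal phase ovary. SERPINA5 stood at 1.70 to 4.46 times PLAU in luteal phase ovaries and at 1.40 to 3.92 times in the follicular phase. The urokinase transcript and both of these inhibitors were therefore higher in the same phase, with ratios whose ranges overlapped between the phases.

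SERPINE2 (protease nexin-1, a secreted inhibitor of urokinase, plasmin and thrombin, Gene ID 100861161) had FPKM of 390, 172, 133, 132 and 249 in luteal phase ovaries and of 534, 296, 175, 377 and 332 in the follicular phase. The spread within each phase was wide, and luteal phase replicate 1 exceeded 4 of the 5 follicular phase ovaries. For SERPINE2 the log2 fold change was -0.71 (95% interval -1.45 to 0.02, limma adjusted p = 0.105). The gene passed the threshold without luteal phase replicate 1 (log2 fold change -0.96, limma adjusted p = 0.0245) and without follicular phase replicate 3 (-0.93, limma adjusted p = 0.0377). SERPINI1 (neuroserpin, an inhibitor of tissue-type activator) lay between 1.23 and 3.65 FPKM in luteal phase ovaries and between 2.01 and 3.60 in the follicular phase and was not called (limma adjusted p = 0.738).

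Among the serpins known for roles outside protease inhibition, SERPINF1 showed the widest gap between the phases. SERPINF1 (pigment epithelium-derived factor, a secreted inhibitor of vessel growth, Gene ID 102179233) had FPKM of 80.5, 40.0, 80.6, 71.3 and 59.0 in luteal phase ovaries and of 6.50, 4.01, 11.5, 10.7 and 6.92 in the follicular phase. The means were 66.3 ± 17.2 and 7.93 ± 3.12 (mean ± SD, n = 5 each), an 8.56-fold difference with a log2 fold change of 3.10 (SE 0.28, limma adjusted p = 1.31e-05). In each of the 5 luteal phase ovaries SERPINF1 was above its level in every follicular phase ovary. SERPINH1 (the collagen chaperone HSP47, Gene ID 102171265) lay between 248 and 361 FPKM in luteal phase ovaries and between 260 and 391 in the follicular phase. Its log2 fold change was -0.08 with a 95% interval from -0.37 to 0.20 (limma adjusted p = 0.627), and its sign turned after a shift to a common median and on the TPM scale. The interval excludes a change of 2-fold in either direction.

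SERPINA14 (the uterine serpin of ruminants, known from uterine secretions in pregnancy, Gene ID 100861383) was lower in the luteal phase. Its FPKM were 4.59, 6.07, 2.48, 0.680 and 1.21 in luteal phase ovaries and 5.89, 13.1, 7.53, 6.52 and 5.16 in the follicular phase. Luteal phase replicate 2 was above 2 of the follicular phase ovaries, so the ranges overlapped. SERPINA14 had a log2 fold change of -1.62 (SE 0.51, limma adjusted p = 0.0240), or 3.08-fold higher in the follicular phase. The call was lost without luteal phase replicate 5 (limma adjusted p = 0.0591) and without follicular phase replicate 2 (limma adjusted p = 0.0510). SERPINA7 (thyroxine-binding globulin) was listed at 0 in 9 of 10 ovaries and was not tested.

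The clade B serpins mostly act inside cells. SERPINB1 (leukocyte elastase inhibitor, Gene ID 102179337) had FPKM of 26.5, 19.9, 20.2, 24.3 and 25.1 in luteal phase ovaries and of 17.2, 16.6, 18.7, 16.8 and 19.0 in the follicular phase. The phases did not overlap, although the difference was small, with a log2 fold change of 0.38 (SE 0.09, limma adjusted p = 0.00690). Of the 4 macrophage and leukocyte markers tested, CSF1R was higher in the luteal phase (log2 fold change 0.95, limma adjusted p = 0.00998), while PTPRC (0.17), CD14 (0.07) and CD68 (-0.02) were not called. ELANE, the neutrophil elastase that SERPINB1 inhibits, went the other way, at 2.61 ± 0.715 in luteal phase ovaries and 4.85 ± 0.952 in the follicular phase (log2 fold change -0.89, limma adjusted p = 0.00338).

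SERPINB12 (Gene ID 102178964) was near 0 in 1 phase only. Its FPKM were 1.33, 1.53, 0.832, 0.838 and 0.590 in luteal phase ovaries and 0.0223, 0.0225, 0, 0.0261 and 0 in the follicular phase. It was above 0.5 FPKM in every luteal phase ovary and at or near 0 in every follicular phase ovary. No p is given, since the gene passed the filter through the luteal phase ovaries alone. Its log2 fold change of 3.23 depended on the pseudocount, and it was 0.97 with a pseudocount of 1 and 5.56 with a pseudocount of 0.01. SERPINB5 (maspin) lay between 0.791 and 2.36 FPKM in luteal phase ovaries and between 0.587 and 1.32 in the follicular phase and was not called (limma adjusted p = 0.152). It passed the threshold without luteal phase replicate 1 (log2 fold change 0.71, limma adjusted p = 0.0479), the lowest ovary of its phase. SERPINB7 and SERPINB11 stayed below the filter, and SERPINB7 was listed at 0 in all 5 follicular phase ovaries and reached 0.102 in the luteal phase.

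Of the 4 inhibitors of clotting and complement proteases, SERPINC1 and SERPING1 were tested and neither was called. SERPING1 (C1 inhibitor, which blocks the first complement proteases) had between 23.7 and 65.8 FPKM in luteal phase ovaries and between 19.2 and 47.0 in the follicular phase, with a log2 fold change of 0.62 (95% interval 0.01 to 1.22, limma adjusted p = 0.0911). It passed the threshold without luteal phase replicate 2 (limma adjusted p = 0.0229), the lowest ovary of its phase, or without follicular phase replicate 5 (limma adjusted p = 0.0234), the highest of its phase. SERPINC1 (antithrombin) stayed between 0.220 and 0.898 FPKM over all 10 ovaries (log2 fold change 0.59, limma adjusted p = 0.0778), and it passed the threshold without luteal phase replicate 3 (limma adjusted p = 0.0270). SERPIND1 (heparin cofactor II) and SERPINA10 (protein Z-dependent protease inhibitor) did not exceed 0.0866 FPKM in any ovary.

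Among the other members, A2ML1 (a macroglobulin that traps proteases, Gene ID 102176590) was low in every ovary. Its FPKM were 0.166, 0.119, 0.0768, 0.112 and 0.0614 in luteal phase ovaries and 0.340, 0.191, 0.221, 0.222 and 0.167 in the follicular phase. The highest luteal phase value lay just below the lowest follicular phase value. The log2 fold change of -0.67 (SE 0.21, limma adjusted p = 0.0256) was -0.15 with a pseudocount of 1 and -1.06 with a pseudocount of 0.01. It lost its call after quantile normalization (limma adjusted p = 0.0808) and without luteal phase replicate 3, luteal phase replicate 5 or follicular phase replicate 1, with limma adjusted p of 0.0520, 0.0623 and 0.0650. SERPINE3 lay between 0.900 and 2.39 FPKM in luteal phase ovaries and between 0.384 and 1.74 in the follicular phase, with a log2 fold change of 0.88 (limma adjusted p = 0.0737). It was called after a shift to a common median (limma adjusted p = 0.0470), after quantile normalization (limma adjusted p = 0.0374), without luteal phase replicate 3 (limma adjusted p = 0.0361) and without follicular phase replicate 5 (limma adjusted p = 0.0257). SERPINA11 lay between 0.122 and 0.617 over all ovaries and was not called (limma adjusted p = 0.973).

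The 9 members below the filter were PLG, SERPINA4, SERPINA7, SERPINA10, SERPINA12, SERPINB7, SERPINB11, SERPIND1 and SERPINI2, and none of them exceeded 0.161 FPKM in any ovary. SERPINA12 (vaspin) held that highest value, with 0 to 0.0378 FPKM in luteal phase ovaries and 0.0574 to 0.161 in the follicular phase. SERPINA4 (kallistatin) was listed at 0 in 8 ovaries and SERPINI2 in 4. PLG, SERPINA4, SERPINA7, SERPINA10 and SERPIND1 are known as plasma proteins made by the liver. So are SERPINF2 and SERPING1, which were at 6.66 FPKM or more and at 19.2 FPKM or more in all 10 ovaries, and SERPINC1, at 0.220 or more. The liver markers ALB, TTR, AHSG, FGB and APOH summed to between 0.416 and 1.27 FPKM in luteal phase ovaries and to between 1.67 and 2.47 in the follicular phase. Of these, TTR and AHSG were tested and both were lower in the luteal phase, while ALB, FGB and APOH were below the filter. The part of liver or plasma RNA in the SERPINF2 level was not tested.

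**Figure D3:**
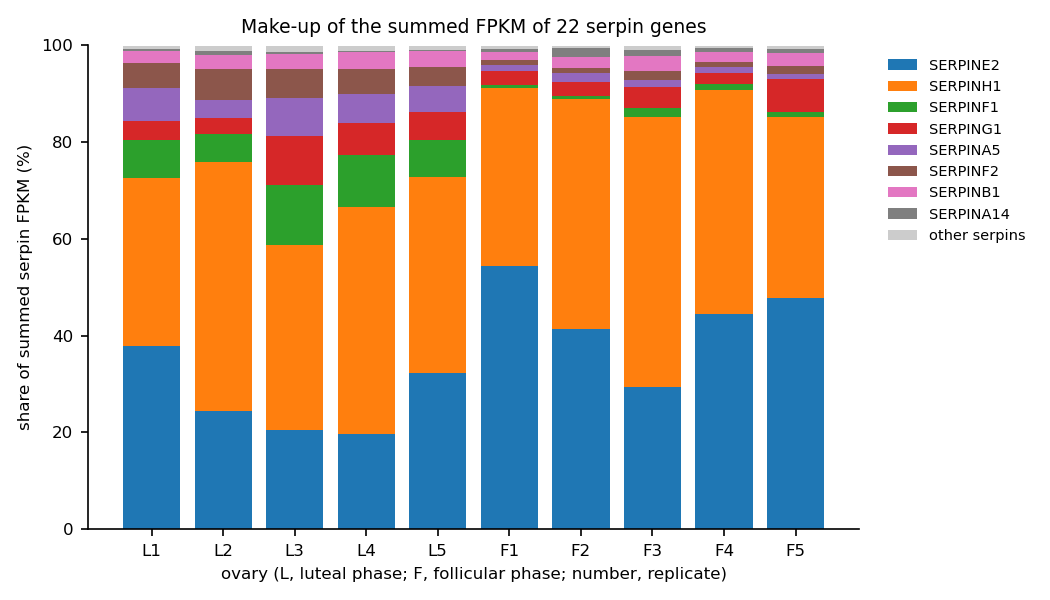
Share of the summed FPKM of 22 serpin genes (y axis, percent) held by the 8 most abundant serpins in each luteal phase (L1 to L5) and follicular phase (F1 to F5) ovary. SERPINE2 and SERPINH1 together hold 58.7% to 75.9% in luteal phase ovaries and 85.1% to 91.2% in the follicular phase, and SERPINF1, SERPINF2 and SERPINA5 together hold 15.9% to 26.3% and 2.82% to 5.29%.

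The sum over the described serpins was close in both phases, while the shares of single genes differed. The FPKM of the 22 serpin genes summed to 763 ± 156 in luteal phase ovaries and to 767 ± 149 in the follicular phase (mean ± SD, n = 5 each), with overlapping ranges. SERPINE2 and SERPINH1 were the most abundant members in all 10 ovaries. Their joint share was 69.4 ± 6.84% in luteal phase ovaries and 88.2 ± 2.90% in the follicular phase, and the ranges did not overlap. SERPINF1, SERPINF2 and SERPINA5 together made up 20.1 ± 4.16% and 3.78 ± 0.911%. These 5 genes were put together after their values were seen, so the shares are a description.

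The transcripts were compared to see which of them carried the differences between the phases. Of the 53 member transcripts, 28 were tested and 7 were called, all higher in the luteal phase (over all transcripts tested, 17.3% were called, 7.55% with luteal phase ovaries higher and 9.73% with follicular phase ovaries higher). The SERPINB12 transcript passed the filter through luteal phase ovaries alone, and 6 of the other 27 were called (22.2%). PLAU, SERPINA5, SERPINB12 and SERPINF1 have a single transcript each. For SERPINF2, XM_005693315.3 lay between 26.1 and 43.3 FPKM in luteal phase ovaries and between 5.90 and 9.75 in the follicular phase (log2 fold change 2.01, limma adjusted p = 4.41e-05), and XM_005693314.3 was higher in the luteal phase too, at a lower level (log2 fold change 2.02, limma adjusted p = 0.00502). In SERPINB1 the call rested on XM_018039198.1 (log2 fold change 0.39, limma adjusted p = 0.0132). For SERPINA14, the main transcript NM_001314301.1 had a log2 fold change of -1.72 and missed the threshold (limma adjusted p = 0.0522).

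SERPING1 had a pair of transcripts whose proportions varied between ovaries, and a further transcript listed at 0 in all 10. XM_018059057.1 was listed at 0 in luteal phase replicate 2, where XM_018059056.1 held all 23.7 FPKM of the gene, and it lay between 19.0 and 28.5 in the other luteal phase ovaries. In the follicular phase XM_018059056.1 ranged from 4.54 to 21.5 FPKM. Transcripts of a gene share reads, so their division is less certain than their sum, and neither transcript was called (limma adjusted p = 0.0660 for XM_018059056.1 and 0.627 for XM_018059057.1).

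**Figure D4:**
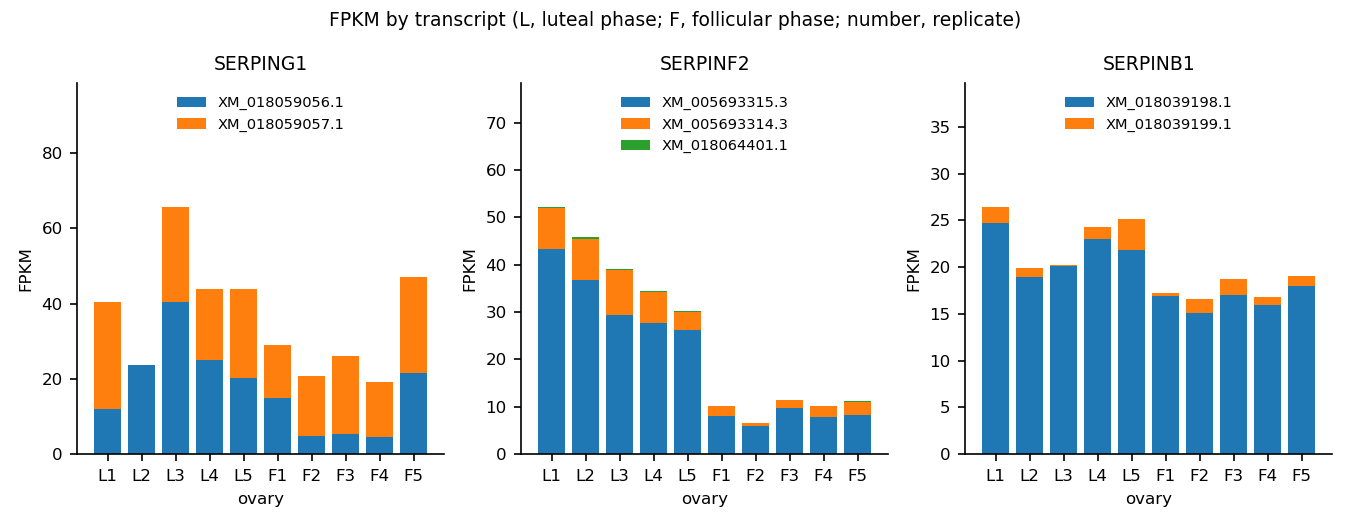
FPKM by transcript (stacked bars) of SERPING1, SERPINF2 and SERPINB1 in each luteal phase (L1 to L5) and follicular phase (F1 to F5) ovary. In SERPINF2 the same transcript leads in all 10 ovaries, in SERPINB1 XM_018039198.1 does so as well, and in SERPING1 one transcript is absent from the bar of luteal phase replicate 2.

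Several members lie next to each other in the goat RefSeq assembly ARS1.2, which served only for the order of genes. SERPINF2 and SERPINF1 are neighbours with no other annotated protein-coding gene between them, and both were higher in the luteal phase. SERPINA11, SERPINA14, SERPINA12, SERPINA4 and SERPINA5 follow each other in the same unbroken way. In that row SERPINA5 was higher in the luteal phase, SERPINA14 was higher in the follicular phase, SERPINA11 was not called, and SERPINA12 and SERPINA4 were below the filter. SERPINB12 is the neighbour of SERPINB5, which was not called.

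The other genes of the pathway were taken from lists that the rule for the members did not use. Their counts stand beside the 15.9% and 27.8% of all genes called higher in luteal and follicular phase ovaries. A list of receptors for plasminogen and for serpin complexes, with related proteins, had 10 tested genes. Of these, 4 were higher in luteal phase ovaries and 1 in the follicular phase, with a median log2 fold change of 0.25. ANXA2, a cell surface partner of plasminogen and of tissue-type activator, had 473 ± 59.6 FPKM in luteal phase ovaries and 223 ± 25.1 in the follicular phase (mean ± SD, n = 5 each; log2 fold change 1.08, limma adjusted p = 2.55e-05). PLGRKT, a plasminogen receptor, had a log2 fold change of 0.63 (limma adjusted p = 0.000348). VLDLR, which takes up protease and serpin complexes, had 1.01 (limma adjusted p = 0.00257), and LRPAP1, a chaperone of the receptors of that family, had 0.47 (limma adjusted p = 0.00100). MRC2, a collagen receptor that associates with the urokinase receptor, was lower (log2 fold change -0.54, limma adjusted p = 0.0170). LRP1, the main receptor for serpin complexes, lay at 34.0 ± 9.26 and 36.2 ± 9.51 FPKM and was not called (log2 fold change -0.08, limma adjusted p = 0.776).

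Among 18 tested genes of coagulation, 9 were higher in luteal phase ovaries and 1, GAS6, in the follicular phase, with a median log2 fold change of 1.09. F2RL3 and F2RL2, receptors of the protease-activated family, had log2 fold changes of 2.49 and 2.23. F2RL3 reached the minimum of 0.1 FPKM in luteal phase ovaries alone, so no p is given for it, and F2RL2 had a limma adjusted p of 6.33e-05. Without F2RL3, 8 of 17 genes were called on the luteal side and 1 on the follicular side, with a median of 0.91. F13A1, the subunit of factor XIII that cross-links fibrin, had 1.80 (limma adjusted p = 0.000750). PROS1, the cofactor of activated protein C, had 102 ± 12.8 FPKM in luteal phase ovaries and 35.6 ± 3.99 in the follicular phase (log2 fold change 1.52, limma adjusted p = 1.25e-06). F5 and F8, cofactors of the clotting cascade, had 1.52 and 1.45 (limma adjusted p = 0.000266 and 2.09e-05).

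Of 20 tested protease inhibitors outside the serpin family, 4 were higher in luteal phase ovaries, a share near that of all genes, and 2 in the follicular phase, with a median log2 fold change of 0.07. PI3, the elastase inhibitor elafin, had 29.4 ± 8.17 FPKM in luteal phase ovaries and 0.568 ± 0.462 in the follicular phase (log2 fold change 5.71, limma adjusted p = 4.23e-06). ITIH4, of the inter-alpha-trypsin inhibitor family, had 202 ± 22.3 and 19.8 ± 3.05 (log2 fold change 3.35, limma adjusted p = 4.13e-09). TFPI, the inhibitor of the tissue factor pathway, had 30.6 ± 4.25 and 3.72 ± 0.949 (log2 fold change 3.03, limma adjusted p = 1.63e-07). CD109, a macroglobulin relative on the cell surface, had a log2 fold change of 0.49 (limma adjusted p = 0.0300). PEBP1 and the cystatin CST6 were lower in the luteal phase, with log2 fold changes of -1.14 and -1.12 (limma adjusted p = 0.00830 and 0.00158).

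Of 14 tested serine proteases, secreted or at the cell surface, 5 were higher in luteal phase ovaries and 2 in the follicular phase. Their median log2 fold change was 0.14. C1R, a target of SERPING1 in complement activation, had a log2 fold change of 1.27 (limma adjusted p = 2.36e-05), and MASP1 and CFI, also complement proteases, had 2.81 and 2.90 (limma adjusted p = 9.76e-07 and 0.000724). HTRA1 had 0.80 (limma adjusted p = 0.000111), while HTRA3 and CORIN had -1.32 and -1.02 (limma adjusted p = 0.00241 and 0.0143). Of 10 cysteine cathepsins, CTSV, CTSC, CTSH and CTSS were higher in luteal phase ovaries and none was higher in the follicular phase. Of 6 tested leukocyte granule proteases and relatives of them, ELANE and AZU1 were lower in the luteal phase.

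SERPINH1 was set beside 19 tested collagens and collagen-processing genes, of which 7 were higher in luteal phase ovaries and 1 in the follicular phase. COL4A1 and COL4A2, of the basement membrane, had log2 fold changes of 1.46 and 1.31 (limma adjusted p = 6.13e-07 and 1.68e-05), and the cross-linking enzyme LOX had 1.26 (limma adjusted p = 0.000358). BMP1, COL3A1 and COL1A2 had 0.76, 0.75 and 0.52. The follicular gene was CRTAP, part of the collagen-modifying complex of the endoplasmic reticulum (log2 fold change -0.27, limma adjusted p = 0.0388). PPIB (log2 fold change 0.01, limma adjusted p = 0.944) and P4HB (0.10, limma adjusted p = 0.409), which work in the same compartment as SERPINH1, were not called.

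**Figure D5:**
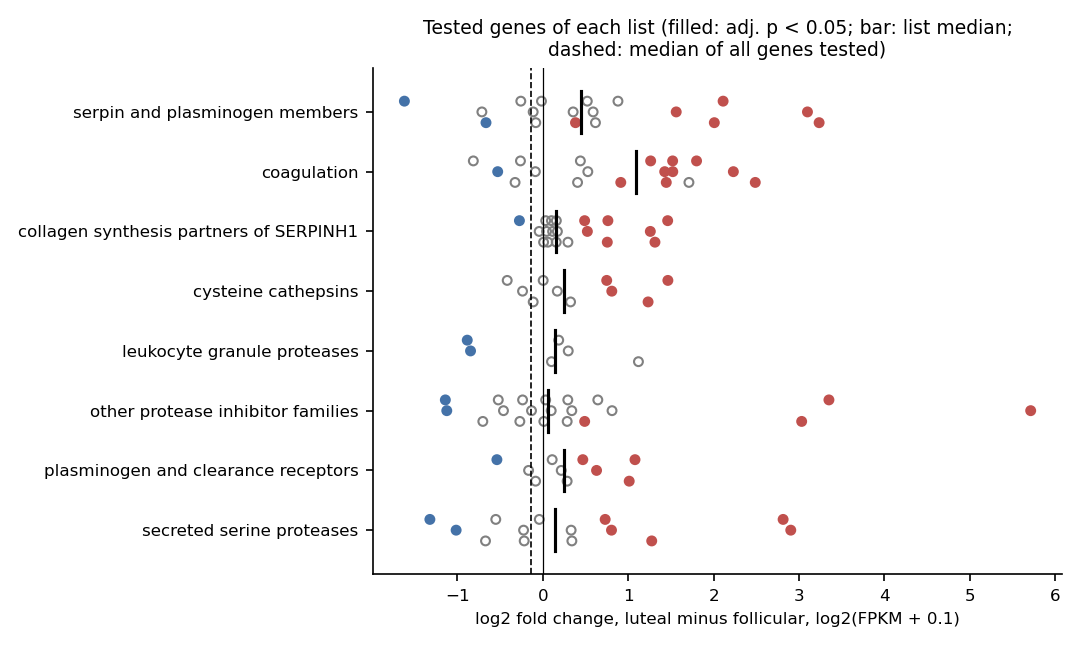
The log2 fold change (x axis, luteal minus follicular on log2(FPKM + 0.1)) of each tested gene in the serpin and plasminogen set and in 7 lists of related genes, filled where called and with the list median as a bar. The coagulation list has the highest median (1.09, or 0.91 without F2RL3), and single inhibitors outside the serpin family reach 5.71.

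Markers of several ovarian cell types also differed between the phases. Endothelial markers were higher in the luteal phase for 5 of 5 genes (summed level 184 to 236 FPKM against 79.7 to 92.6), and smooth muscle markers were lower for 4 of 4 (267 to 487 against 630 to 773). Granulosa cell markers were lower for 2 of 5 (84.9 to 629 against 189 to 1035) and oocyte markers for 4 of 6 (8.28 to 19.1 against 16.0 to 45.1). Stroma markers were higher for 2 of 5 (2621 to 4415 against 2065 to 2929), macrophage and leukocyte markers for 1 of 4 (43.0 to 48.8 against 24.8 to 53.8), and surface epithelium markers were divided, with MSLN higher and KRT19 lower among 4 tested (13.2 to 29.4 against 10.9 to 44.0). HBB, HBA and HBA1 had no match, and the blood markers in the table, ALAS2 and SLC4A1, summed to at most 0.0346 FPKM. What part the cell make-up has in the serpin differences was not tested.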

How the data were processed

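Paired-end libraries were made with a directional kit from the rRNA-depleted RNA of 10 goat ovaries. The authors used HISAT2 for alignment and StringTie for assembly, and deposited the FPKM of each transcript and ovary, computed with Cuffdiff. The genome build is not given in the sources used here. Each column was assigned to its ovary by phase and replicate number.

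FPKM of protein-coding transcripts was summed per symbol. Features with at least 0.1 FPKM in at least 5 ovaries were tested on log2(FPKM + 0.1) with limma 3.58.1 (lmFit, eBayes with trend) in R 4.3.3, two-sided, with Benjamini-Hochberg adjustment over all genes, or all transcripts, tested. The authors' test needs the reads, so limma stood in. The fold change understates the change of low genes. The fit was also run on simulated data with far fewer changed features than were called here, and no result rests on that run. Alternatives were other pseudocounts, filters, scalings and variance models, a replicate block, and each ovary left out. Tables and figures used Python 3.11.15 with pandas 2.3.3, numpy 2.4.6 and matplotlib 3.10.9.

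The members, lists and tests were chosen with earlier results of these data known. Values in every ovary are given for called members whose phases do not overlap and for PLAT, PLAU, PLAUR, PLG, SERPINE2 and SERPINF2. SERPINB2 and A2M, under the same rule, were not analysed here, and 1 of the 28 symbols matched is not reported here. SERPINA14 was added after its values were seen. Of each other list at most 6 called genes, those with the largest change, are named, and GAS6, CRTAP, LRP1, PPIB, P4HB, PTPRC, CD14 and CD68 were added after their values were seen. Listed symbols without a row were matched through RefSeq synonyms.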

Additional observations from a re-analysis of the deposited data

Results flagged for a closer look

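SERPINF2 in follicular phase replicate 2 had an FPKM of 6.66 and lay far below the other follicular phase ovaries, at 10.1 to 11.5. This was the only far value among 36 sets of 5 ovaries, and chance gives about 1 in 20 sets. The log2 fold change of SERPINF2 without this ovary was 1.87, and its call was kept.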

How the results depend on the processing

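The called members kept their direction under the 19 alternatives, except that A2ML1 fell below the minimum of 0.5 FPKM and has no value there, and SERPINF1, SERPINA5, SERPINF2, PLAU and SERPINB1 stayed called in each. Of 132 values of the 7 called members that passed the filter in both phases, 126 kept their call, and the 6 that lost it belong to SERPINA14 and A2ML1. The median log2 fold change of the members was 0.45, and it was 0.11 with no filter and 0.55 with a minimum of 0.5 FPKM, where other members are counted, 0.29 with a pseudocount of 1 and 0.56 on the TPM scale. The number of members higher in the follicular phase was 1 with that minimum (29.5% of all genes) and after quantile normalization (24.4%), and 0 to 3 when each ovary was left out in turn (21.9% to 29.4%). At an unadjusted p under 0.05, 13 of 28 member transcripts passed instead of 7, or 12 of 27 instead of 6 without that of SERPINB12 (31.4% of all transcripts tested). The sign turned for members near 0. After a shift to a common median, quantile normalization and on the TPM scale, SERPINA11 was at 0.069, 0.12 and 0.064 and SERPINH1 was at 0.0022 after the shift and 0.016 on the TPM scale. With each ovary left out, SERPINA11 ran from -0.25 to 0.15, SERPINH1 from -0.17 to 0.0044 and SERPINI1 from -0.29 to 0.087. Of all calls over the genes tested, 36.3% had luteal phase ovaries higher, and 48.8%, 41.8% and 52.5% under these 3 scalings.

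With a replicate block, 10 members were called (45.7% of all genes, 43.7% without it), with SERPINE2 (log2 fold change -0.71, limma adjusted p = 0.0126) and SERPINE3 (0.88, limma adjusted p = 0.0265) added, and no call was lost. The deviations of same-numbered ovaries had correlations of 0.026 to 0.199 across genes, and 5 of 10 ovaries correlated best with their own number. Nothing in the labels ties equal numbers together, so the block was not used. SERPINA12, below the filter otherwise, was called with no filter (log2 fold change -0.75, limma adjusted p = 0.00385). With no filter, 33.6% of all genes were called, and 21.5% were called higher in the follicular phase. The luteal phase values of SERPINA12 were at most 0.0378 FPKM, below the pseudocount of 0.1, so its fold change depends on the pseudocount.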
